A study of Mus musculus with 15 samples.

Results

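The nuclear-encoded genes of mitochondrial respiratory complexes II, III, IV and V were followed in mouse embryonic stem cells (ESCs) of the line E14TG2 as they turned into epiblast-like cells (EpiLCs), with and without a knockout (KO) of Atg7. The genes were taken by symbol: Sdha to Sdhd for complex II, Cyc1 and every symbol that begins with Uqcr for complex III, the Cox4 to Cox8 genes for complex IV, and every symbol that begins with Atp5 for complex V. This gave 48 of 24982 symbols, with 4 in complex II, 9 in complex III, 18 in complex IV and 17 in complex V. Polyadenylated RNA was sequenced from 5 groups of 3 libraries: Atg7 KO cells at day 2 and at day 4 of the transition, control cells at day 2 and at day 4, and ESCs at day 0, which carry the control genotype. All groups share the E14TG2 line, a cell line from a male mouse embryo. ESCs had grown on inactivated mouse embryonic fibroblasts with LIF and the inhibitors PD0325901 and CHIR99021, and the transition was run on fibronectin with activin A and bFGF. The labels do not say how Atg7 was disrupted, whether the KO is 1 clone, or whether replicates are separate cultures, and p-values therefore measure only the spread between these libraries. No KO library of day 0 was analysed here.

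Complex II (succinate dehydrogenase) feeds electrons from succinate into ubiquinone, complex III passes them to cytochrome c, and complex IV (cytochrome c oxidase) passes them to oxygen. Complexes III and IV pump protons, and complex V (ATP synthase) lets the protons back through its membrane part Fo to drive ATP synthesis in its catalytic part F1. Complex II is encoded wholly in the nucleus, while the other complexes mix nuclear subunits with a few encoded in mitochondrial DNA. Several complex IV subunits exist as a widely expressed isoform and a second isoform typical of heart and skeletal muscle, lung or testis. Naive ESCs use respiration beside glycolysis, whereas cells of the implanting epiblast rely more on glycolysis. Atg7 is an E1-like enzyme needed to form autophagosomes, the vesicles that also carry damaged mitochondria to the lysosome.

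Total counts lay between 14059237 and 23371546 per library, and 47 of the 48 genes had enough counts to be tested among 15696 genes in all. Levels are in CPM, the counts of a gene scaled to library size. Changes between groups are given on the log2 scale with their standard error (±), from edgeR's quasi-likelihood model over all 15 libraries, with p adjusted by Benjamini-Hochberg over all tested genes and a gene called changed at an adjusted p under 0.05. In KO cells Atg7 stood at 6.84, 7.53 and 7.11 CPM at day 2, against 14.6, 12.1 and 14 CPM in control cells, and at 12.6, 12.7 and 10.4 CPM at day 4, against 19.1, 19.9 and 19.4 CPM in control cells. The groups did not overlap on either day, with changes of -0.92 ± 0.11 (adjusted p = 8.34e-06) and -0.71 ± 0.11 (adjusted p = 8.39e-05), and whether these reads come from the disrupted part of the gene is not given. The summed level of 7 markers of pluripotent cells was 2798 to 2969 CPM in KO and 2423 to 2450 CPM in control cells at day 2, 2629 to 2779 CPM in KO and 2065 to 2264 CPM in control cells at day 4, and 4019 to 4091 CPM in ESCs. Markers of feeder fibroblasts (13 genes, none at 0) summed to 551 to 924 CPM in KO and 331 to 381 CPM in control cells at day 2 and to 219 to 259 CPM in KO and 158 to 167 CPM in control cells at day 4. In ESCs they varied widely, at 1938, 1007 and 265 CPM, and ESC replicate 3 stood apart from the other ESC libraries, with a chi-square per degree of freedom of 31.78 and 24.22 against 5.863 between replicates 1 and 2. The part of feeder RNA in the results was not tested. A fit without ESC replicate 3 and KO day 2 replicate 2, which has the highest feeder sum of its group, is given beside the main counts. ESC replicate 3 has the lowest feeder sum of the ESCs, so that fit keeps the ESC libraries with more feeder RNA. For comparisons with ESCs it is therefore no check on feeder RNA. In these bulk samples fewer cells of a type and less RNA per cell cannot be told apart.

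The promoters of 36 of the genes were found in RefSeq (GRCm38.p6), as windows from 250 bases before to 50 bases after the start of transcription. Nuclear respiratory factor 1, GABP (an ETS factor) and YY1 are the classical regulators of such genes, and their sites were searched on both strands as GCGCA, any base and GCGC for the first, CCGGAAG for the second and AANATGGCG for the third. The NRF1 letters stood in 27.8% of the 36 genes, against 10.2% of the 12342 tested genes with a window and 4.6% of all 32851 windows. For the ETS letters the shares were 33.3%, against 17.9% and 8.86%, and for the YY1 letters 8.33%, against 5.15% and 2.38%. At least 1 of the motifs stood in 20 of the 36 genes, or 55.6%, against 29.1% of tested genes. These are matches of letters and say nothing of binding. Below are the windows of Uqcrc1, the gene whose KO effect differed most between days among those above 5 CPM in every group, Cox6a1, the largest fall over the transition in complex IV, Atp5g3, a c ring gene lower in KO cells at day 2, and Cox7b2, a testis isoform that rose. Each is written 5′ to 3′ on the strand of its gene, with the motif matches in capitals. They lie at chr9:108936398-108936697 (plus strand), chr5:115348909-115349208 (minus strand), chr2:73911277-73911576 (minus strand) and chr5:71548156-71548455 (minus strand).
Uqcrc1: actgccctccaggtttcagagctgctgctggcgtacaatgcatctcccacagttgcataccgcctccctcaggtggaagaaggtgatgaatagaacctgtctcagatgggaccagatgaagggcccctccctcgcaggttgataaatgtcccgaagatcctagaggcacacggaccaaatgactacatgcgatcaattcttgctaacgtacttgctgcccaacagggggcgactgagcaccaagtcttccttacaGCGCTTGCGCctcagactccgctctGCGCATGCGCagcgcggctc
Cox6a1: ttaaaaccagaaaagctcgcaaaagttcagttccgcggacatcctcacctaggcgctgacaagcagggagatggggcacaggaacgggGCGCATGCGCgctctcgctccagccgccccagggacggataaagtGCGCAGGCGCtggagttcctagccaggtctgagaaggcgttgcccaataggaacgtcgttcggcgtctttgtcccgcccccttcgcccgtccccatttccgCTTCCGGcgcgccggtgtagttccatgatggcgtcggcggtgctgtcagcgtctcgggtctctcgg
Atp5g3: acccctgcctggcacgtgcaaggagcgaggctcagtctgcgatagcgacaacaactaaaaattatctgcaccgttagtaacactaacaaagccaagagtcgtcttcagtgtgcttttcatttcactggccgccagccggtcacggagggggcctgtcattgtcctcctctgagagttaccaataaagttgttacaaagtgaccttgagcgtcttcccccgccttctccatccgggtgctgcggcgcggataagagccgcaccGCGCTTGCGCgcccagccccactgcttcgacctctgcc
Cox7b2: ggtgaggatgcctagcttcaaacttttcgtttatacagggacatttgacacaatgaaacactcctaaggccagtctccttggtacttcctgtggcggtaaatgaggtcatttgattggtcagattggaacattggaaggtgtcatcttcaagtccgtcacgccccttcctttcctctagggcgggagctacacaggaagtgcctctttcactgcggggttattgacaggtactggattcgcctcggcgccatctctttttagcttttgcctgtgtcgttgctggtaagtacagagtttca
The Uqcrc1 window holds 2 NRF1 matches, which begin 5 and 30 bases after the start. In Cox6a1 the 2 NRF1 matches begin 162 and 117 bases before the start and the ETS match, on the other strand, 16 bases before it. The single NRF1 match of Atp5g3 begins 12 bases after the start, and Cox7b2 holds none of the letters searched. No match in these windows overlaps another.

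Per kilobase of transcript, ESC levels ran over several orders of magnitude. Atp5b, the catalytic beta subunit of F1, was highest at 1400 ± 114 CPM per kb (SD, n = 3), followed by its partner Atp5a1, the alpha subunit, at 683 ± 14.3. Next came a run of complex IV genes whose neighbours did not differ beyond their spread: Cox5a at 597 ± 39.9, Cox8a at 580 ± 41.8, Cox4i1 at 545 ± 47.3 and Cox6a1 at 544 ± 38.5 CPM per kb. At the other end stood the tissue isoforms Cox7b2, Cox8c, Cox4i2 and Cox6a2, between 1.69 and 0.197 CPM per kb. Cox8b, the heart and muscle form of subunit 8, had 0 counts in 14 of the 15 libraries and 1 count in all, and a count of 0 allows up to 0.125 to 0.207 CPM in these libraries, for counting error only. Atp5o shares its symbol with another annotated gene and has no length here.

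Over the transition of control cells the respiratory genes fell together. Their summed level was 11669, 12089 and 12167 CPM in ESCs at day 0, 9340, 9986 and 9200 CPM in control cells at day 2, and 6768, 6952 and 7319 CPM in control cells at day 4. No library of a later time overlapped one of an earlier time, and the day 4 mean was 58.6% of the ESC mean. Between control day 4 and ESCs 38 of the 47 tested genes fell, 4 rose and 5 did not pass, against 35.6% of all tested genes that fell and 36.2% that rose. The median change was -0.84 (log2), against 0.02 over all tested genes, and 18 genes passed both the test and a 2-fold change. By day 2, 34 had fallen and 7 had risen, with a median of -0.40, where 34.9% of tested genes fell and 35.6% rose. From day 2 to day 4 another step of -0.49 in the median was seen, with 32 genes lower and 4 higher, where 34.6% of tested genes fell and 33.9% rose, and the 4 became 2 without control day 2 replicate 3 or control day 4 replicate 2. In the fit of 13 libraries 37 genes fell and 4 rose between control day 4 and ESCs.

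**Figure D1:**
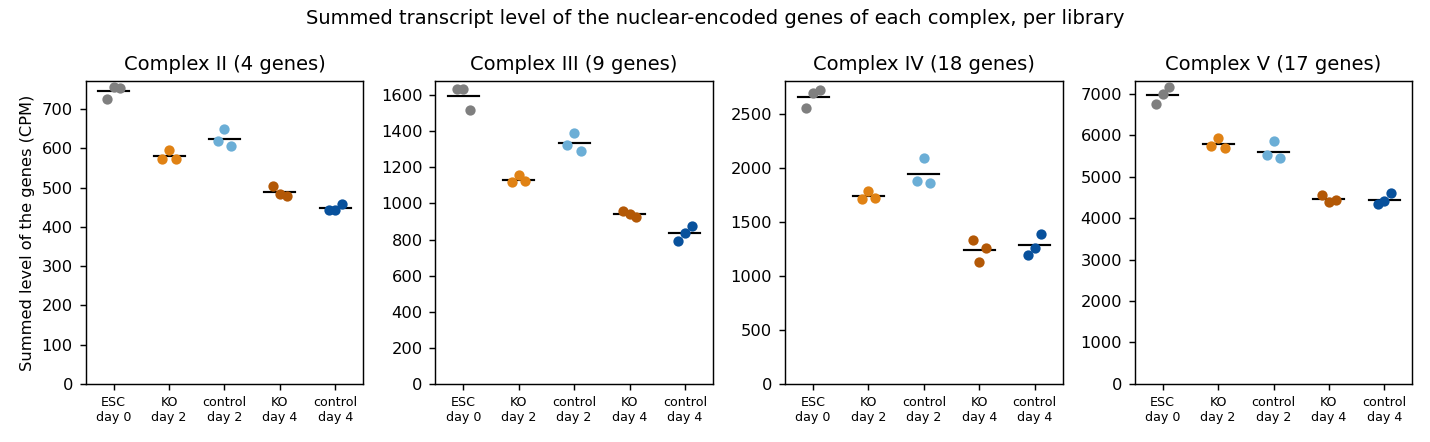
Summed level (CPM) of the genes of each complex in each library (points) with the group mean (bars), for ESCs, Atg7 KO and control cells at day 2, and Atg7 KO and control cells at day 4. All 4 complexes step down with time, and complex III of KO cells lies below control cells at day 2 (1132 against 1334 CPM) and above them at day 4 (943 against 834 CPM).

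The complexes fell by unlike amounts. By summed level complex IV fell furthest, to 73% of its ESC sum in control cells at day 2 and to 48.2% at day 4. Complex III stood at 83.6% and 52.3%, complex II at 83.7% and 60%, and complex V at 80.4% and 63.8%. For comparison, 37 subunits of complex I summed to 81.7% and 63.2% of the ESC level, and 33 of 36 tested fell between day 4 and ESCs. Of 21 mitochondrial genes outside the respiratory chain (porins, import, citrate cycle, chaperones and carriers), 17 fell and 2 rose, with a median of -0.53. Of all tested genes 35.6% fell and 36.2% rose in this comparison.

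In complex II all 4 genes were lower in control cells at day 4 than in ESCs. Sdha, the flavoprotein that oxidises succinate, changed by -0.65 ± 0.05 and most of it by day 2 (-0.52 ± 0.05). Sdhb, the iron-sulfur subunit, changed by -1.02 ± 0.06, with a fall in each step. Sdhc and Sdhd, the membrane anchors that bind ubiquinone, did not pass the test at day 2, at 0.07 ± 0.05 and 0.00 ± 0.06. Sdhc had 136, 145 and 145 CPM in ESCs, 146, 159 and 141 CPM in control cells at day 2, and 72.6, 72.2 and 76.1 CPM at day 4. Its whole fall thus lay between day 2 and day 4 (-1.02 ± 0.06, adjusted p = 2.36e-10), and Sdhd had the same course at -0.59 ± 0.06.

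In complex III the genes differed in timing. The supernumerary subunits Uqcrq, Uqcr10, Uqcrh, Uqcrb and Uqcr11, small proteins around the catalytic core, had all fallen by day 2, with changes between -0.87 and -0.44. Uqcrq, the largest fall over the whole transition among the tested genes of the 4 complexes, had 168, 174 and 123 CPM in ESCs, 83.9, 91.5 and 78.6 CPM in control cells at day 2, and 42.3, 43.4 and 53.2 CPM at day 4. Its groups do not overlap, and the change between control day 4 and ESCs was -1.74 ± 0.12 (adjusted p = 1.32e-09). Uqcr10 had 124, 131 and 131 CPM in ESCs, 82.8, 96.9 and 82 CPM at day 2 and 36.7, 38.7 and 42.2 CPM at day 4, a change of -1.71 ± 0.10 between the ends. Uqcrc1 and Cyc1 fell mostly after day 2. Uqcrc1, a core subunit related to mitochondrial processing peptidases, had 480, 486 and 467 CPM in ESCs, 439, 448 and 419 CPM at day 2, and 164, 174 and 181 CPM at day 4. It thus held most of its level at day 2, with a change of -0.13 ± 0.05 (adjusted p = 0.0257), and fell by 1.33 ± 0.05 on the log2 scale from there. That small day 2 call was lost without ESC replicate 1 or 2 or control day 2 replicate 1 or 3, at -0.14 to -0.10, and also without the filter on low counts (-0.11). Cyc1, which carries the haem of cytochrome c1, did the same, at -0.08 ± 0.06 by day 2 and -0.97 ± 0.06 thereafter. Uqcrfs1, the Rieske iron-sulfur protein, rose by 0.66 ± 0.11 by day 2 and fell by 0.70 ± 0.11 after it, so that control day 4 and ESCs differed by -0.03 ± 0.11. The other core gene, Uqcrc2, fell by 0.36 ± 0.06 by day 2 (adjusted p = 3.72e-05) and did not pass after it (0.09 ± 0.06), with -0.27 ± 0.06 between day 4 and ESCs.

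In complex IV the widely expressed isoforms and the subunits with a single form fell, 10 of 10 tested, with Cox6a1, Cox5a and Cox7a2 furthest. Cox6a1, the common form of a subunit near the dimer interface, had 293, 304 and 335 CPM in ESCs, 232, 228 and 211 CPM in control cells at day 2 and 89.7, 102 and 105 CPM at day 4, a change of -1.66 ± 0.07 (adjusted p = 8.51e-12). Cox5a, the site of thyroid hormone binding on the matrix side, had 378, 363 and 413 CPM in ESCs, 211, 231 and 212 CPM at day 2 and 122, 132 and 141 CPM at day 4 (-1.55 ± 0.08). Neither gene overlaps between groups. Cox7a2 changed by -1.43 ± 0.08 and Cox6b1, which binds at the intermembrane side, by -1.40 ± 0.09. Cox8a, the zinc-binding Cox5b, Cox7b, Cox6c, Cox4i1, whose protein senses ATP, and Cox7c lay between -1.17 and -0.86. Cox7b on the X chromosome had done most of this by day 2, with 159, 177 and 178 CPM in ESCs, 93.5, 107 and 95.1 CPM at day 2 and 84, 86.6 and 95.7 CPM at day 4. Its later step of -0.15 ± 0.10 did not pass. Cox7a2l, which joins complexes III and IV into supercomplexes, took another course: it rose by 0.28 ± 0.07 by day 2, fell by 0.40 ± 0.07 after it, and at day 4 differed from ESCs by -0.12 ± 0.07.

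In complex V all 5 F1 genes and all 3 c ring genes fell. The F1 genes were Atp5a1 (-0.53 ± 0.04), Atp5b (-0.73 ± 0.05), the rotor subunits Atp5c1 (-0.51 ± 0.05) and Atp5d (-1.24 ± 0.07), and Atp5e (-1.36 ± 0.11), again for control day 4 against ESCs. The c ring is the rotor of Fo, and its genes Atp5g1, Atp5g2 and Atp5g3 encode the same mature protein behind different import sequences. Atp5g3 had 310, 290 and 287 CPM in ESCs, 146, 171 and 153 CPM in control cells at day 2 and 145, 149 and 174 CPM at day 4. The day 2 and day 4 libraries overlap, so its fall (-0.91 ± 0.08 by day 2) was over by day 2, while Atp5g1 fell in steps of -0.32 ± 0.07 and -0.56 ± 0.07. Among 8 genes of the stalk and Fo, 6 fell: Atp5h (subunit d), Atp5j (F6), Atp5j2 (subunit f), Atp5l (subunit g), Atp5o (the oligomycin sensitivity protein) and Atp5mpl (a small proteolipid of Fo), at -1.25 to -0.41. Atp5j had 136, 143 and 144 CPM in ESCs, 73.4, 82.6 and 75 CPM at day 2 and 62.2, 63.7 and 71.3 CPM at day 4, so that most of the fall was early (-0.87 ± 0.06). Atp5f1, which encodes the peripheral stalk subunit b, went the other way: it fell by 0.29 ± 0.05 by day 2 and rose by 0.46 ± 0.05 after it, to 0.16 ± 0.05 above ESCs (adjusted p = 0.00616). It overlaps Wdr77 on the opposite strand, which differed by 0.18 ± 0.07 in the same comparison, and whether reads were counted by strand is not given. Atp5k (subunit e) passed in no comparison, at -0.00 ± 0.22 for control day 4 against ESCs. Atp5s, also called factor B and not a lasting subunit, had 13.3, 13.6 and 14.2 CPM in ESCs, 18.7, 17.2 and 19.8 CPM at day 2 and 8.18, 8.7 and 8.89 CPM at day 4, a rise of 0.44 ± 0.10 followed by a fall of 1.12 ± 0.10.

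**Figure D2:**
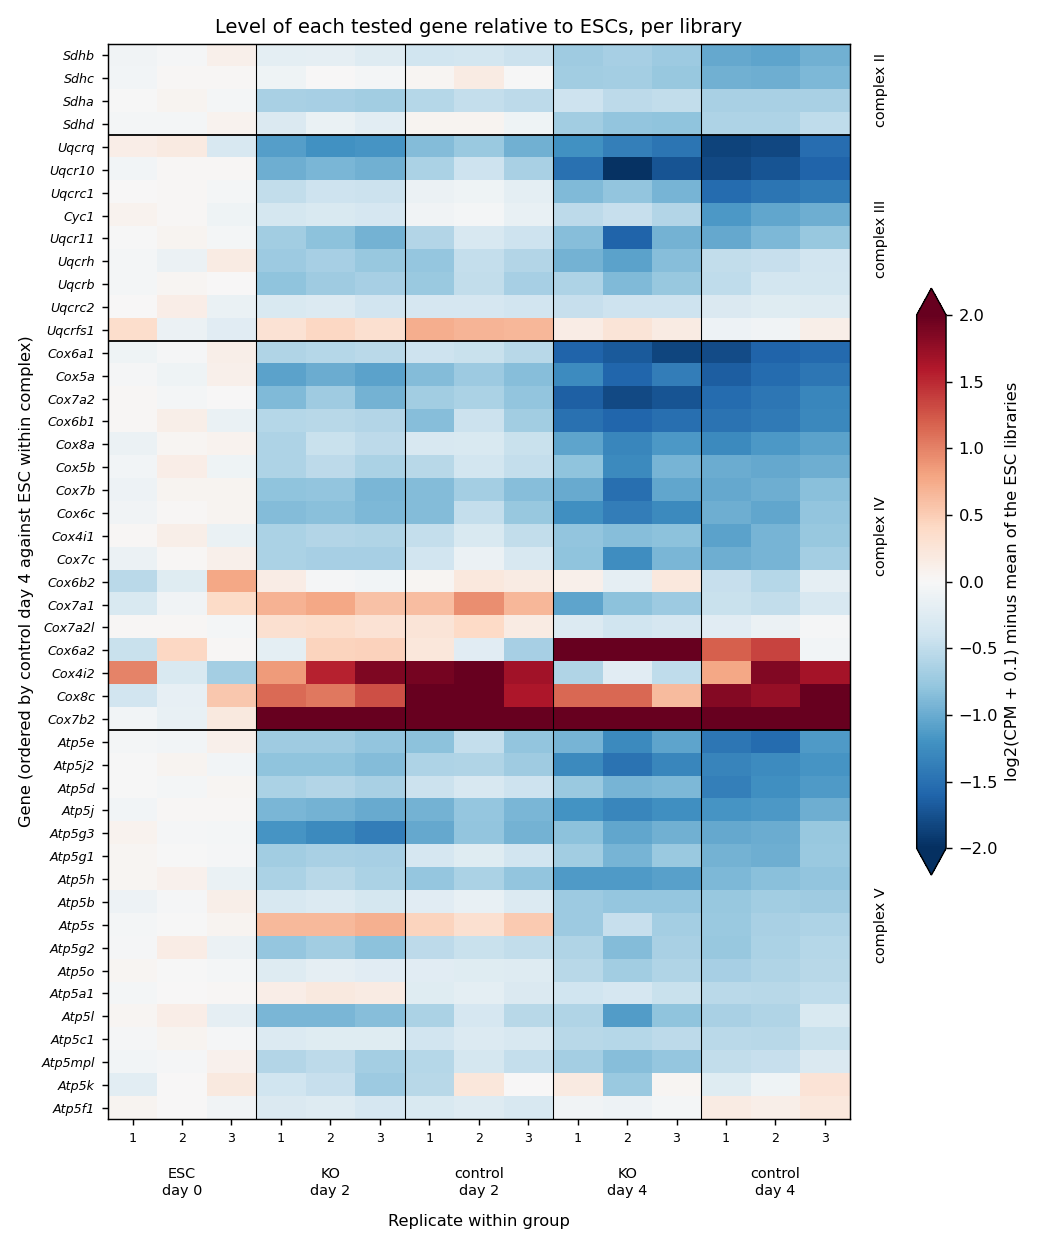
Level of each of the 47 tested genes in each library, as log2(CPM + 0.1) minus the mean of the ESC libraries (colour, limited to ±2), with genes in rows by complex and libraries in columns by group. Blue deepens from ESCs to day 4 in most rows, while the tissue isoforms Cox7b2 and Cox8c are red in every day 2 and day 4 group.

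At day 2 the Atg7 KO cells had lower levels of most complex III genes and of the c ring genes than control cells. Of the 47 tested genes 18 were lower, 2 higher and 27 did not pass, against 21.4% of all tested genes that were lower and 20.4% that were higher. The median change was -0.14, against -0.01 over all tested genes, and it was -0.08 without control day 2 replicate 2. No gene reached a 2-fold change, and KO and control libraries did not overlap for 24 genes, where 61.3% of tested genes did not. The fit of 13 libraries called 21 lower and 3 higher. By complex, 6 of 9 complex III genes were lower and none higher (median -0.31), 4 of 17 in complex IV (median -0.14), a share near that of all tested genes and with no widely expressed isoform among them, 6 of 17 in complex V with 1 higher (median -0.10), and 2 of 4 in complex II with 1 higher (median -0.13). The absence of widely expressed isoforms depended on the fit: with 13 libraries Cox4i1 (-0.19), Cox7a2 (-0.21) and Cox8a (-0.22) were called lower.

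At day 4 the direction was mixed. Of the 47 genes 9 were higher, 13 lower and 25 did not pass, against 19.5% of tested genes higher and 18.1% lower. The median was -0.04 and rested on single libraries, at -0.11 without KO day 4 replicate 1, -0.09 without control day 4 replicate 1, -0.01 without KO day 4 replicate 2 and -0.00 without control day 4 replicate 3. KO and control libraries did not overlap for 26 genes, where 54.9% of tested genes did not. The 13 lower genes became 8 without control day 4 replicate 3, and the fit of 13 libraries called 11 higher and 15 lower. Complex II had 3 of 4 genes higher and 1 lower, complex III had 3 higher and 3 lower, complex V had 2 higher and 3 lower, and complex IV had 1 higher and 6 lower. The KO effect itself differed between days for 18 genes, more positive at day 4 for 12 and more negative for 6, against 18.6% and 17.6% of tested genes, and the 6 became 3 without KO day 2 replicate 2. In complex III 5 of 9 genes had a more positive effect at day 4 and 1 a more negative effect. The day 2 and day 4 comparisons share no library.

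**Figure D3:**
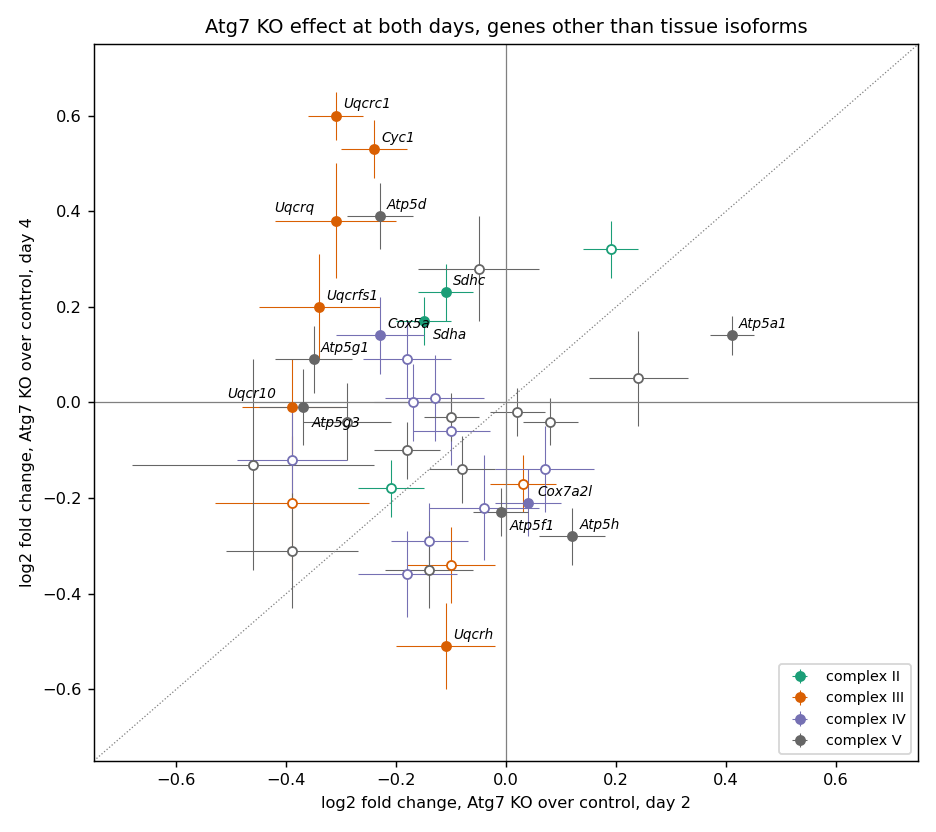
KO effect (log2 fold change, Atg7 KO over control, with standard errors) at day 2 (horizontal) and day 4 (vertical) for the tested genes other than tissue isoforms, coloured by complex. Filled, named points passed edgeR's test of the difference between days, and the upper left holds Uqcrc1, Cyc1, Uqcrq and Atp5d, lower in KO cells at day 2 and higher at day 4.

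Uqcrc1, Cyc1, Uqcrq, Atp5d and Sdha were lower in KO cells at day 2 and higher at day 4. Uqcrc1 (chr9:108936633-108949623, plus strand) had 339, 359 and 355 CPM in KO cells at day 2, against 439, 448 and 419 CPM in control cells, and at day 4 it had 260, 277 and 252 CPM in KO cells, against 164, 174 and 181 CPM in control cells. The groups are apart on both days and in opposite order, at -0.31 ± 0.05 and 0.60 ± 0.05, with a difference between days of 0.91 ± 0.07 (edgeR adjusted p = 6.04e-07). Cyc1 (chr15:76343523-76346260, plus strand) had 211, 218 and 212 CPM in KO cells at day 2, against 255, 261 and 242 CPM in control cells, and 186, 194 and 178 CPM in KO cells at day 4, against 121, 131 and 136 CPM in control cells. The order turned here too, at -0.24 ± 0.06 and 0.53 ± 0.06, with a difference of 0.77 ± 0.08 (adjusted p = 4.31e-06). Both results kept their calls in every fit that left out 1 library. The course over time shows where the turn lies: from day 2 to day 4 Uqcrc1 fell by 0.42 ± 0.05 in KO cells and by 1.33 ± 0.05 in control cells, and Cyc1 by 0.20 ± 0.06 in KO and by 0.97 ± 0.06 in control cells.

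Atp5d, the delta subunit of the F1 rotor, had 142, 146 and 141 CPM in KO cells at day 2, against 163, 176 and 165 CPM in control cells, and 132, 115 and 118 CPM in KO cells at day 4, against 85, 94.3 and 99.9 CPM in control cells. Its effects were -0.23 ± 0.06 and 0.39 ± 0.07, with a difference of 0.62 ± 0.09 (adjusted p = 8.6e-05). Uqcrq had 71.5, 65.9 and 67.5 CPM in KO cells at day 2, against 83.9, 91.5 and 78.6 CPM in control cells, and 66.1, 59.3 and 55.3 CPM in KO cells at day 4, against 42.3, 43.4 and 53.2 CPM in control cells. KO and control libraries do not overlap on either day, and the difference was 0.69 ± 0.17 (adjusted p = 0.00399). Its call within a day was less firm: at day 2 (-0.31 ± 0.11) it was lost without control replicate 1 or 2 or any of the KO replicates, at -0.34 to -0.25, and at day 4 (0.38 ± 0.12) without control replicate 1 or 2 or KO replicate 1, at 0.31 to 0.34. Sdha changed by -0.15 ± 0.05 at day 2 and 0.17 ± 0.05 at day 4, and its day 2 call was lost without KO replicate 3 or control replicate 2, at -0.13 each. Uqcrfs1 had 91.5, 99.8 and 93.2 CPM in KO cells at day 2, against 123, 119 and 118 CPM in control cells, and 82.5, 89.1 and 83.6 CPM in KO cells at day 4, against 69.6, 71.2 and 81 CPM in control cells. Here the groups turned as well, but the day 4 effect of 0.20 ± 0.11 did not pass (adjusted p = 0.159), while the difference of 0.54 ± 0.15 did (adjusted p = 0.0107). The day 2 effect of -0.34 ± 0.11 lost its call without KO replicate 1 or 3 or control replicate 1, at -0.33 to -0.32.

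A group of 10 genes, with Uqcrfs1 described above among them, was lower in KO cells at day 2 and did not pass at day 4. This sorting is no test of a difference between days, which Atp5g2, Uqcr11, Cox7c, Atp5l and Atp5j2 did not pass. All 3 genes of the c ring are in the group, at -0.35 ± 0.07 for Atp5g1, -0.29 ± 0.08 for Atp5g2 and -0.37 ± 0.08 for Atp5g3. Their sum was 380, 384 and 363 CPM in KO cells at day 2, against 457, 502 and 463 CPM in control cells, and 434, 369 and 408 CPM in KO cells at day 4, against 378, 389 and 438 CPM in control cells. The day 2 groups do not overlap and the day 4 groups do. The effect differed between days for Atp5g1 (0.44 ± 0.10) and Atp5g3 (0.35 ± 0.11), the second not without control day 2 replicate 2, KO day 2 replicate 3, control day 4 replicate 1 or 2 or KO day 4 replicate 1 (0.29 to 0.32). Uqcr10 had 65.4, 67.9 and 66.1 CPM in KO cells at day 2, against 82.8, 96.9 and 82 CPM in control cells (-0.39 ± 0.09, adjusted p = 0.0034). Uqcr11 had 38.3, 35.2 and 32.2 CPM in KO cells, against 41.6, 49.7 and 46.8 CPM in control cells, and its call (-0.39 ± 0.14) was lost without KO replicate 2 or 3 or control replicate 2 or 3, at -0.39 to -0.32. Neither gene overlaps between the day 2 groups. Cox7c, a small subunit with a single form, had 173, 170 and 170 CPM in KO cells, against 207, 248 and 216 CPM in control cells (-0.39 ± 0.10, adjusted p = 0.00523). Atp5l had 49.9, 49.6 and 51.9 CPM in KO cells, against 60.2, 74 and 64 CPM in control cells (-0.39 ± 0.12), a call lost without KO replicate 1 or 2 or control replicate 2, at -0.38 to -0.30. At day 4 Atp5l missed the threshold narrowly, at -0.31 ± 0.12 (edgeR adjusted p = 0.0561), and the fit of 13 libraries called it lower. Cox5a (-0.23 ± 0.08) and Atp5j2 (-0.18 ± 0.06) complete the group, and each lost its call in some fits without 1 day 2 library, at -0.22 to -0.19 without KO replicate 1 or 3 or control replicate 2 for Cox5a and at -0.19 to -0.16 without those or control replicate 1 for Atp5j2.

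Another 10 genes were lower in KO cells at day 4 and did not pass at day 2. Among them Uqcrb, Uqcrc2, Atp5mpl, Cox6c and Cox7a2 did not pass the test of the difference between days. Uqcrh, the hinge protein beside cytochrome c1, had 44.9, 41.2 and 48.2 CPM in KO cells at day 4, against 61.6, 63.2 and 66.1 CPM in control cells. The groups are well apart (-0.51 ± 0.09, adjusted p = 0.000304), while at day 2 the effect was -0.11 ± 0.09, and the difference of -0.40 ± 0.12 was lost without control day 2 replicate 1, KO day 2 replicate 2 or KO day 4 replicate 2, at -0.37 to -0.31. Thus within complex III Uqcrh was lower and Uqcrc1, Cyc1 and Uqcrq higher in the same KO libraries. Uqcrb changed by -0.34 ± 0.08 and Uqcrc2 by -0.17 ± 0.06, the second not without KO replicate 1, 2 or 3 or control replicate 2 or 3 (-0.18 to -0.16). In complex V the stalk and Fo genes Atp5f1 (-0.23 ± 0.05), Atp5h (-0.28 ± 0.06) and Atp5mpl (-0.35 ± 0.08) were lower. All 8 stalk and Fo genes had a negative value, from -0.35 to -0.02, with 3 past the test. Of the 15696 tested genes 8014 had a negative value. Wdr77, which overlaps Atp5f1, differed by 0.19 ± 0.07 at day 4, the opposite sign. In complex IV Cox6c (-0.36 ± 0.09), Cox7a2 (-0.29 ± 0.08, not without control replicate 3, -0.23) and Cox7a2l (-0.21 ± 0.07, not without control replicate 3 or KO replicate 2 or 3, -0.21 to -0.16) were lower, beside the tissue isoform Cox4i2 described below.

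In complex II Sdha, Sdhb and Sdhc were higher in KO cells at day 4. Sdhb was higher on both days (0.19 ± 0.05 and 0.32 ± 0.06), Sdhc at day 4 (0.23 ± 0.06, difference 0.34 ± 0.08), and Sdhd was lower on both (-0.21 ± 0.06 and -0.18 ± 0.06). The Sdhd call was lost at day 2 without KO replicate 1 (-0.17) and at day 4 without KO replicate 2 or 3 or control replicate 3 (-0.17 to -0.14). The summed complex II level at day 4 was 503, 483 and 478 CPM in KO cells, against 443, 443 and 457 CPM in control cells.

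Atp5a1, on chromosome 18, was the other gene higher in KO cells on both days. It had 1857, 1931 and 1891 CPM in KO cells at day 2, against 1428, 1468 and 1380 CPM in control cells, and 1274, 1333 and 1245 CPM in KO cells at day 4, against 1163, 1150 and 1191 CPM in control cells. KO and control libraries do not overlap on either day, and the effect was 0.41 ± 0.04 at day 2 (adjusted p = 2.27e-06) and 0.14 ± 0.04 at day 4, the second lost without control or KO replicate 2 (0.11 to 0.13). Its partner Atp5b, with which it forms the catalytic ring of F1, was at -0.10 ± 0.05 and -0.03 ± 0.05, neither past the test. The median KO effect over 408 tested genes of chromosome 18 was 0.56 at day 2 and 0.01 at day 4, while the medians of the other autosomes lay between -0.08 and 0.04 at day 2, chromosome 6 left aside, which holds none of these genes. Within control cells the chromosome 18 median was 0.35 for day 4 against day 2 and 0.33 for day 4 against ESCs. The other autosomes lay at -0.18 to 0.17 and -0.25 to 0.17, chromosome 6 (0.39 and 0.44) again left aside. Atp5a1 thus moved with its chromosome in the KO effect at day 2, while in control cells it fell from day 2 to day 4 (-0.29 ± 0.04). The part of the chromosome in its values was not tested. Haus1, which overlaps it on the opposite strand, differed by 0.97 ± 0.08 at day 2 and -0.43 ± 0.08 at day 4.

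The remaining 15 genes passed on neither day. Among them were all the widely expressed complex IV isoforms other than Cox7a2, which were Cox4i1, Cox6a1, Cox6b1, Cox7b and Cox8a, with values between -0.18 and 0.07 at day 2 and between -0.22 and 0.09 at day 4. Cox4i1 and Cox8a missed the threshold narrowly at day 2 (edgeR adjusted p = 0.0593 and 0.0711), with KO and control libraries apart. Both passed in the fit of 13 libraries. The list is completed by Cox5b, Atp5b, Atp5c1, Atp5e, Atp5j, Atp5k, Atp5o, Atp5s and the tissue isoforms Cox6b2 and Cox7a1. Atp5s also missed narrowly at day 2 (0.24 ± 0.09, edgeR adjusted p = 0.0507), with libraries apart, and Atp5e at day 4 (0.28 ± 0.11, adjusted p = 0.0634). Both passed as higher in the fit of 13 libraries, which also called Cox6b2 higher and Cox7a1 lower at day 4. Atp5k (-0.46 ± 0.22 at day 2) passed as lower without ESC replicate 3 or control day 2 replicate 1.

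Of the 6 tested tissue isoforms 3 rose between control day 4 and ESCs, 1 fell and 2 did not pass, where 36.2% of all tested genes rose, while all 6 widely expressed partners fell. The one that fell was Cox7a1 (-0.45 ± 0.17, adjusted p = 0.0241), a call lost without ESC replicate 3 or control day 4 replicate 1 or 2, at -0.44 to -0.23. Cox6b2 was at -0.51 ± 0.23 and Cox6a2 at 1.28 ± 0.64, neither past the test. Cox7b2 (chr5:71442824-71548205, minus strand), the testis form of subunit 7b, had 0.873, 0.812 and 1.06 CPM in ESCs, 9.15, 9.73 and 9.98 CPM in control cells at day 2 and 15.8, 16.8 and 18.7 CPM at day 4. Its rise of 4.21 ± 0.17 (adjusted p = 2.63e-12) is the largest change between control day 4 and ESCs in the 4 complexes, and its share of the Cox7b and Cox7b2 level per kilobase was 0.974% in ESCs, 15.3% at day 2 and 26.2% at day 4. Cox8c, the testis form of subunit 8, rose by 2.03 ± 0.33, to 1.68% of the Cox8a and Cox8c level per kilobase. Cox4i2, the lung form of subunit 4, which is induced by low oxygen, had 1.48, 0.541 and 0.396 CPM in ESCs, 2.9, 3.07 and 2.46 CPM at day 2 and 1.26, 2.76 and 2.41 CPM at day 4. It rose by 1.40 ± 0.43 between the ends, though day 4 and ESC libraries overlap. The summed level of 7 markers of germ cells also rose, at 260 to 541 CPM in ESCs, 827 to 875 CPM in control cells at day 2 and 1502 to 1796 CPM at day 4, and their part in the testis isoforms was not tested.

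Both testis isoforms that rose were lower in KO cells on both days. Cox7b2 had 6.04, 5.87 and 6.64 CPM in KO cells at day 2, against 9.15, 9.73 and 9.98 CPM in control cells, and 12.7, 10.1 and 13 CPM in KO cells at day 4, against 15.8, 16.8 and 18.7 CPM in control cells. The groups do not overlap, at -0.64 ± 0.13 (adjusted p = 0.000865) and -0.52 ± 0.12 (adjusted p = 0.00334). Cox8c had 1.14, 1.08 and 1.29 CPM in KO cells at day 2, against 2.57, 2.5 and 1.64 CPM in control cells, and 1.15, 1.15 and 0.783 CPM in KO cells at day 4, against 1.92, 1.79 and 2.36 CPM in control cells. Its effects were -0.92 ± 0.26 and -0.97 ± 0.29, the second lost without KO or control replicate 3, at -0.84 to -0.81. Germ cell markers summed to 825 to 862 CPM in KO and 827 to 875 CPM in control cells at day 2 and to 1244 to 1520 CPM in KO and 1502 to 1796 CPM in control cells at day 4. Of 6 tested germ cell markers 1 was higher and 2 lower in KO cells at day 2, and 5 were lower and none higher at day 4, with a median of -0.46. Of all tested genes 20.4% were higher and 21.4% lower at day 2, and 19.5% higher and 18.1% lower at day 4. Cox6b2, the remaining testis form, was the most abundant of the tissue isoforms. It had 49.5, 44 and 43.2 CPM in KO cells at day 2, against 45.8, 51.7 and 50.1 CPM in control cells, and 47.7, 39.3 and 51.5 CPM in KO cells at day 4, against 32.5, 30.2 and 39.3 CPM in control cells. The day 2 groups overlap, and at day 4 the lowest KO and the highest control library meet at 39.3 CPM. In ESCs its libraries lay far apart, at 30.7, 37.9 and 76.6 CPM, the last in replicate 3, and the day 4 effect of 0.44 ± 0.23 did not pass (adjusted p = 0.151) but was 0.43 and passed without that library (adjusted p = 0.00145). As Cox6b1 fell over the transition, Cox6b2 made up 27.3% ± 11.4 of the pair per kilobase in ESCs, 41.7% ± 2.24 in control cells at day 4 and 51.6% ± 2.64 in KO cells at day 4 (SD, n = 3 each).

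Cox6a2, the heart and skeletal muscle form of subunit 6a, showed the largest KO effect of the 4 complexes. It lies at chr7:128205435-128206387 on the minus strand. At day 4 it had 5.77, 4.15 and 5.81 CPM in KO cells (95, 72 and 89 counts), against 0.421, 0.483 and 0.118 CPM in control cells (7, 7 and 2 counts). At day 2 it had 0.0991, 0.208 and 0.214 CPM in KO cells, against 0.167, 0.0945 and 0.0432 CPM in control cells, and in ESCs 0.0672, 0.203 and 0.132 CPM, which are 1 to 5 counts a library. Only the day 4 KO libraries stand clear of the rest, with a change of 3.94 ± 0.37, or 15.4-fold (edgeR adjusted p = 1.04e-06), which passed in every fit that left out 1 library. The gene passed the filter on low counts only through these libraries, where it is high. Its p-values thus give no support independent of that level. The difference between days was 3.12 ± 0.90 (adjusted p = 0.0125), and without control day 2 replicate 1 it was 2.64 (adjusted p = 0.0897). Even so, Cox6a2 made up only 4.45% ± 0.927 of the Cox6a1 and Cox6a2 level per kilobase in KO cells at day 4, against 0.295% ± 0.174 in control cells (SD, n = 3 each), and Cox6a1 itself was at -0.06 ± 0.07. The gene overlaps Itgad on the opposite strand, which had 0.607, 0.519 and 0.326 CPM in KO cells at day 4, against 0.12, 0.138 and 0.294 CPM in control cells. The 11 markers of heart and skeletal muscle summed to 18.3 to 20.5 CPM in KO cells and 19.6 to 22.3 CPM in control cells at day 4, with Myod1 at 0 in the KO group, 1 of 7 tested higher (Actc1, 1.42 ± 0.37) and 2 lower (Myl7, -2.06 ± 0.37, and Myh6, -0.76 ± 0.16). Of all tested genes 19.5% were higher and 18.1% lower at day 4.

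Cox4i2 was lower in KO cells at day 4. It had 1.34, 2.21 and 2.79 CPM in KO cells at day 2, against 2.9, 3.07 and 2.46 CPM in control cells, and 0.425, 0.576 and 0.457 CPM in KO cells at day 4, against 1.26, 2.76 and 2.41 CPM in control cells. The day 2 groups overlap and the day 4 groups do not, and the day 4 effect was -2.11 ± 0.45 (adjusted p = 0.00163). The difference between days of -1.71 ± 0.57 was lost without any of KO day 2 replicates 2 and 3, control day 2 replicate 3, KO day 4 replicates 1 and 3 and control day 4 replicates 2 and 3, at -1.68 to -1.46. Cox7a1, the heart and muscle form of subunit 7a, had 12.4, 13.2 and 11.5 CPM in KO cells at day 2, against 11.8, 14.6 and 12.1 CPM in control cells, and 3.64, 4.27 and 4.57 CPM in KO cells at day 4, against 5.59, 5.38 and 6.07 CPM in control cells. The day 4 groups do not overlap, but the effect of -0.45 ± 0.18 did not pass (adjusted p = 0.0563). Cox7a1 passed as lower, again at -0.45, without ESC replicate 1 (edgeR adjusted p = 0.0343) or 3 (adjusted p = 0.0168) and in the fit of 13 libraries. In ESCs it had 6.18, 7.24 and 9.96 CPM, so that control cells had more at day 2 than ESCs (0.72 ± 0.16), and it fell by 1.57 ± 0.17 from day 2 to day 4 in KO cells and by 1.17 ± 0.16 in control cells.

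**Figure D4:**
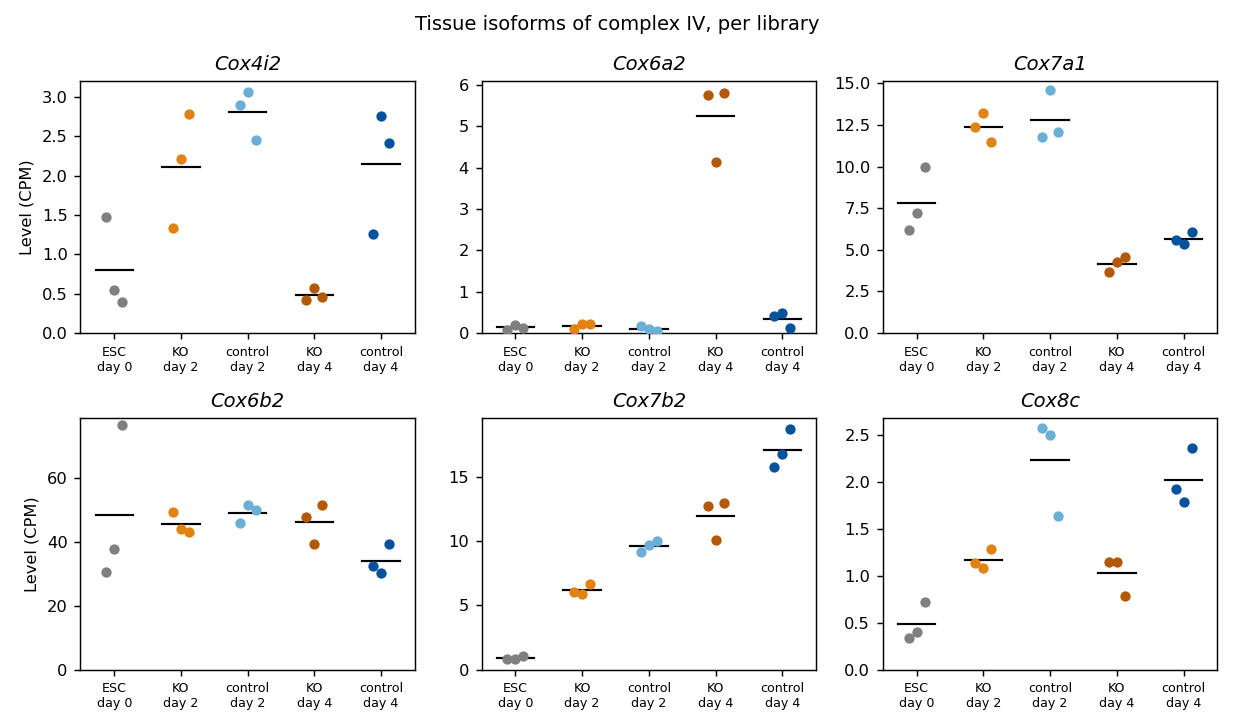
Level (CPM, linear axes from 0) of the 6 tested tissue isoforms of complex IV in each library (points) with the group mean (bars). Cox6a2 is high only in KO cells at day 4 (4.15 to 5.81 CPM), where Cox4i2 is low (0.425 to 0.576 CPM), and Cox7b2 climbs with time and is lower in KO than in control cells on both days.

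The course of KO cells from day 2 to day 4 was flatter than that of control cells for complex III. Of the 47 genes 30 fell and 5 rose between KO day 4 and KO day 2, with a median of -0.32, where 32% of tested genes fell and 31.2% rose. The median was -0.42 without KO day 4 replicate 1. In complex III 4 of 9 genes fell (median -0.20), against 6 of 9 in control cells (median -0.70), and the test of this difference per gene is that of the KO effect between days above. The widely expressed complex IV isoforms fell in KO cells, 6 of 6, including Cox6a1 (-1.14 ± 0.07) and Cox6b1 (-0.96 ± 0.09). Cox6b1 had 79.1, 79.6 and 77.9 CPM in KO cells at day 2 and 41.5, 38.9 and 41.3 CPM at day 4. Next to Cox4i2 and Cox7a1, Atp5s fell furthest, at 21.6, 21.6 and 22.6 CPM in KO cells at day 2 and 8.26, 9.91 and 8.55 CPM at day 4 (-1.30 ± 0.10). The genes that rose were Cox6a2, Cox7b2, Atp5g3, Atp5f1 and Sdha.

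Genes that build the complexes were compared beside their subunits. Of 38 tested assembly factors 19 fell and 6 rose between control day 4 and ESCs, where 35.6% of all tested genes fell and 36.2% rose. At day 2 all 4 assembly factors of complex V were lower in KO cells: Atpaf1 (-0.38 ± 0.10) and Atpaf2 (-0.48 ± 0.08), chaperones of F1, Tmem70 (-0.27 ± 0.08), which acts on the c ring, and Fmc1 (-0.61 ± 0.18). At day 4 none of the 4 passed, between 0.00 and 0.27. In complex III Lyrm7, which inserts the Rieske protein, fell by 3.78 ± 0.24 between control day 4 and ESCs, and it was 1.59 ± 0.28 higher in KO than in control cells at day 2, at 1.95 and 0.639 CPM. Of 21 complex IV factors 4 were higher and 4 lower in KO cells at day 2, close to the 20.4% and 21.4% of all tested genes. Named as examples are the copper chaperone Cox17 (-0.57 ± 0.09) among the lower and Coa7 (0.85 ± 0.13) among the higher. At day 4, 4 were higher and 3 lower, close to the 19.5% and 18.1% of all tested genes, with Coa5 (0.49 ± 0.06) and the haem synthesis enzyme Cox10 (0.38 ± 0.07) among the higher. Cycs, somatic cytochrome c, which carries electrons between complexes III and IV, fell by 0.27 ± 0.06 by day 2 in control cells and rose by 0.72 ± 0.06 after it, to 0.45 ± 0.06 above ESCs. Cycs lies on chromosome 6, whose median change in control cells was 0.39 for day 4 against day 2 and 0.44 for day 4 against ESCs. The part of the chromosome in the Cycs values was not tested. Cycs was lower in KO cells at day 4 (-0.32 ± 0.06). Cyct, the testis cytochrome c, was also lower in KO cells at day 4 (-0.55 ± 0.11).

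Of 36 tested complex I subunits 1 was higher and 6 lower in KO cells at day 2, with a median of -0.08, and 7 were higher and 3 lower at day 4, with a median of 0.02. These shares are at or below those of all tested genes, which were 20.4% higher and 21.4% lower at day 2 and 19.5% higher and 18.1% lower at day 4. Ndufs3 (0.58 ± 0.12) and Ndufb8 (0.37 ± 0.08) had a more positive effect at day 4, and Ndufa4 (-0.70 ± 0.11), a subunit now assigned to complex IV, a more negative one. The median of this difference over chromosome 6, which holds Ndufa4, was -0.17. Among 21 tested regulators 11 were higher and 2 lower in KO cells at day 4. The coactivator Pprc1 had the smallest p among these, with 211, 214 and 212 CPM in KO cells, against 129, 116 and 103 CPM in control cells (0.87 ± 0.08, adjusted p = 1.19e-06), and its level had been 324, 325 and 261 CPM in ESCs. Tfam, which packages mitochondrial DNA, turned the other way, at 0.17 ± 0.05 at day 2 and -0.21 ± 0.05 at day 4. Nrf1 rose by 0.54 ± 0.08 between control day 4 and ESCs, while most of the respiratory genes fell. Nrf1 lies on chromosome 6, whose median change was 0.44 in that comparison. The part of the chromosome in the Nrf1 value was not tested. Esrrb, a nuclear receptor of naive ESCs, fell by 1.77 ± 0.07.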

How the data were processed

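Polyadenylated RNA of E14TG2 cells was measured in 15 RNA-seq libraries, 3 in each of 5 groups. The authors deposited a table of raw counts for every library, with a whole number of reads for each gene symbol. STAR, featureCounts, StringTie and DESeq2, and the builds mm10 and GRCm38, are named per the submitters' processing notes. Versions, annotation and strand setting were not given in the sources used here, and reads of overlapping genes or of near-identical copies are uncertain. Replicates differed by more than sampling noise in each group, with a chi-square per degree of freedom of 3.201 to 31.78 over genes with at least 20 counts, and none was merged.

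The test was the quasi-likelihood test of edgeR 4.0.16 (R 4.3.3) with TMM scaling and 1 mean for each group. The function filterByExpr, set to 10 counts per library and 15 in total, kept 15696 genes and removed 9286. Comparisons were KO against control on each day, the difference of these effects, control day 2 and day 4 against ESCs, and day 4 against day 2 within a genotype. P-values were adjusted by Benjamini-Hochberg over all tested genes at a threshold of 0.05. Library totals of 14059237 to 23371546 counts leave tissue isoforms with few counts, and limits from a count of 0 use 3 counts. The procedure was tested on simulated counts. Levels per kilobase use exons of principal transcripts in GENCODE M21 on GRCm38, found for 47 of 48 genes, and gene coordinates come from there.

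Libraries with the same replicate number did not deviate together (correlations of -0.199 to 0.173, 4 of 30 pairs over 0.1), and numbers were not treated as pairs. The members, gene lists and tests were chosen with earlier results of these data known. Every member is named. Values per library go to tissue isoforms and to up to 6 members per comparison with the largest change among those past the test whose higher group reached 5 CPM. Of other genes, those with the smallest p were preferred. Others, among them Sdhc, Atp5f1, Fmc1, Nrf1, Cycs and genes that overlap a member, were singled out after their values were seen. The alternatives were RLE scaling, no filter, DESeq2 1.42.0, the replicate number as a block, each library left out in turn, and a fit of 13 libraries that omits KO day 2 replicate 2 and ESC replicate 3. A planned comparison of isoform proteins was not made.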

Additional observations from a re-analysis of the deposited data

Results flagged for a closer look

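For 18 genes of complexes II to V the KO effect differed between day 2 and day 4 by edgeR's test of the difference itself. Effects more positive at day 4 were found, as differences of log2 fold changes, for Cox6a2 (3.12), Uqcrc1 (0.91), Cyc1 (0.77), Uqcrq (0.69), Atp5d (0.62), Uqcrfs1 (0.54), Atp5g1 (0.44), Cox5a (0.38), Uqcr10 (0.38), Atp5g3 (0.35), Sdhc (0.34) and Sdha (0.32). More negative effects at day 4 were found for Cox4i2 (-1.71), Uqcrh (-0.40), Atp5h (-0.40), Atp5a1 (-0.27), Cox7a2l (-0.26) and Atp5f1 (-0.23). Of all tested genes 18.6% had a more positive and 17.6% a more negative effect. Of the 18, 6 lost the call in at least 1 fit without 1 library: Cox7a2l in 9 such fits, Uqcr10 in 8, Cox4i2 in 7, Atp5g3 in 5, Uqcrh in 3 and Cox6a2 in 1. For Uqcr10 the values in those fits were 0.26 to 0.40 and for Cox7a2l -0.27 to -0.20. Beside these differences, the feeder fibroblast sum of KO day 2 libraries was the highest of the 4 day 2 and day 4 groups, and the chromosome 18 median KO effect, which touches Atp5a1, was 0.56 at day 2 and 0.01 at day 4. The chromosome 18 median also moved within control cells, by 0.35 from day 2 to day 4. The part of feeder RNA or of the chromosome in these values was not tested.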

How the results depend on the processing

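No value of a gene or count reversed under RLE scaling, no filter, DESeq2, the replicate block, the 13 libraries or any fit without 1 library. RLE scaling, no filter and DESeq2 ended 2, 3 and 2 of the calls of single genes and added 2, 2 and 3, over 7 comparisons. The 13 libraries ended 2 such calls and added 15. None of these settings moved a count of genes by more than 1.5 times. With the replicate number as a block, the difference between days missed the threshold for Cox7a2l (-0.26, adjusted p = 0.0509) and Uqcr10 (0.38, adjusted p = 0.056), and no other call of these genes changed. Without 1 library at a time, genes lower in KO cells at day 4 numbered 8 to 15, genes with a more negative KO effect at day 4 than at day 2 numbered 3 to 9, genes higher in control day 4 than control day 2 numbered 2 to 5, and medians lay between -0.42 and -0.27 for KO day 4 against KO day 2, between -0.17 and -0.08 for KO against control at day 2, between -0.11 and -0.00 at day 4 and between 0.04 and 0.15 for the difference between days; the cause was not tested. Depth limits the tissue isoforms: Cox6a2 had 1 to 7 counts in every library outside KO day 4, and it passed the filter only through that group. Counts cannot separate overlapping genes here, and 3 libraries a group cannot show whether small differences recur in other clones or cultures.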
